A study of Mus musculus with 18 samples.

Results

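Across 18 cultures of mouse bone marrow macrophages, 10 genes of the extracellular matrix were followed, namely the fibrillar collagen chains Col1a1, Col1a2 and Col3a1, the collagen VI chain Col6a1, the small leucine-rich proteoglycans decorin (Dcn), biglycan (Bgn) and lumican (Lum), the matricellular proteins periostin (Postn) and Sparc, and matrix Gla protein (Mgp). Members were taken as all array probes whose transcript identifier belongs to 1 of these 10 RefSeq mouse symbols, which gave 11 probes of the 39429 on the array, with 2 for Sparc. All 10 genes were among the 20813 tested.

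The macrophages were grown for 7 days with M-CSF from femur marrow of male C57BL/6J mice aged 8 weeks. The mice were wild type or PHD3-/-, a knockout of the oxygen-dependent prolyl hydroxylase encoded by Egln3, and the sources used here do not describe the allele. Each genotype had 3 control samples and 3 starved samples, all with oxygen labelled 20, and 3 samples with oxygen labelled 1 and control feeding, here called low oxygen. The labels give no unit for oxygen, and the sources used here do not say whether cells or mice were starved. The design text names 3 mice for each group, and nothing says which samples, if any, share a mouse across conditions.

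Fibrillar collagens are secreted as procollagen, trimmed at their ends and cross-linked into fibres, and small leucine-rich proteoglycans bind these fibres and control their spacing. Matricellular proteins such as periostin and Sparc sit in the matrix and modulate how cells attach to it and deposit collagen. Fibroblasts and other mesenchymal cells are the main known source of collagen I, while macrophages are better known for taking up and degrading matrix and for instructing fibroblasts. Matrix Gla protein is a secreted inhibitor of calcification of soft tissue.

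Signals are log2 values from which each array's own 75th percentile was subtracted, so 0 is that percentile and 1 unit is a doubling. Between 56.1% and 65.4% of the spots of an array were well above background, and samples of 1 group correlated at 0.987 to 0.996 over the genes tested. All 9 macrophage markers on the array, among them Adgre1, Csf1r and Itgam, were well above background in all 18 samples. Egln3 itself read -3.46 ± 0.34 (SD, n = 3) in wild-type controls and -3.95 ± 0.23 in knockout controls, 2.90 ± 0.09 and 2.85 ± 0.14 at low oxygen, and -2.30 ± 0.09 and -2.41 ± 0.18 when starved. Its signal thus did not separate the genotypes at low oxygen, and the sources used here do not place the probe relative to the deleted part. The genotype labels could not be checked with it, and "knockout" below means the samples labelled so. Because the arrays measured RNA of whole cultures, fewer cells of a type and less RNA per cell cannot be told apart in any result below.

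With the scanner's own background correction, starvation lowered both collagen I chains, Sparc and periostin by 6.44-fold to 11.5-fold in the 2 genotypes. Low oxygen lowered matrix Gla protein, collagen VI and periostin, and lumican rose under both stresses. With another background correction, normexp, the starvation falls of the collagen I chains, Sparc and periostin were 2.46-fold to 6.21-fold. Tests were limma's moderated tests of differences between group means, adjusted by Benjamini-Hochberg over all 20813 genes, with a threshold of 0.05. In starved wild-type cells 5 of the 10 genes were lower than in controls and 1 was higher, where 12.5% of all genes tested passed (6.02% lower and 6.49% higher). In starved knockout cells it was again 5 lower and 1 higher, with 13.5% of all genes (6.38% lower and 7.13% higher). At low oxygen 3 were lower and 1 higher in wild type, where 38.6% of all genes passed (18.1% lower and 20.5% higher), and 4 were lower and 1 higher in knockout, where 39.7% passed (18.3% lower and 21.4% higher). After normexp background correction the low-oxygen counts were 1 and 0 members in place of 4 and 5. The members' share called at low oxygen, as reported, was thus near that of all genes, and under starvation it was above it. The members were chosen with earlier results of these data known, so these shares describe the chosen genes and test nothing. The median change of the 10 was -0.75 and -0.84 under starvation and -0.17 and -0.29 at low oxygen (wild type, then knockout), against medians over all genes tested between 0.01 and 0.03. With arrays centred on their median instead, 34.0% of the calls over all genes at low oxygen in wild type were in the higher direction (4274 of 8039 as reported), 41.5% in knockout (4453 of 8268) and 37.4% under starvation in wild type (1350 of 2602), and the median gene moved to -0.12, -0.07 and -0.07. Under normexp 66.0% of the calls in starved wild type were higher, with a median gene at 0.18. No called change of a member turned its sign under any setting tried. Comparisons of the 2 stresses with control share their control samples.

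**Figure D1:**
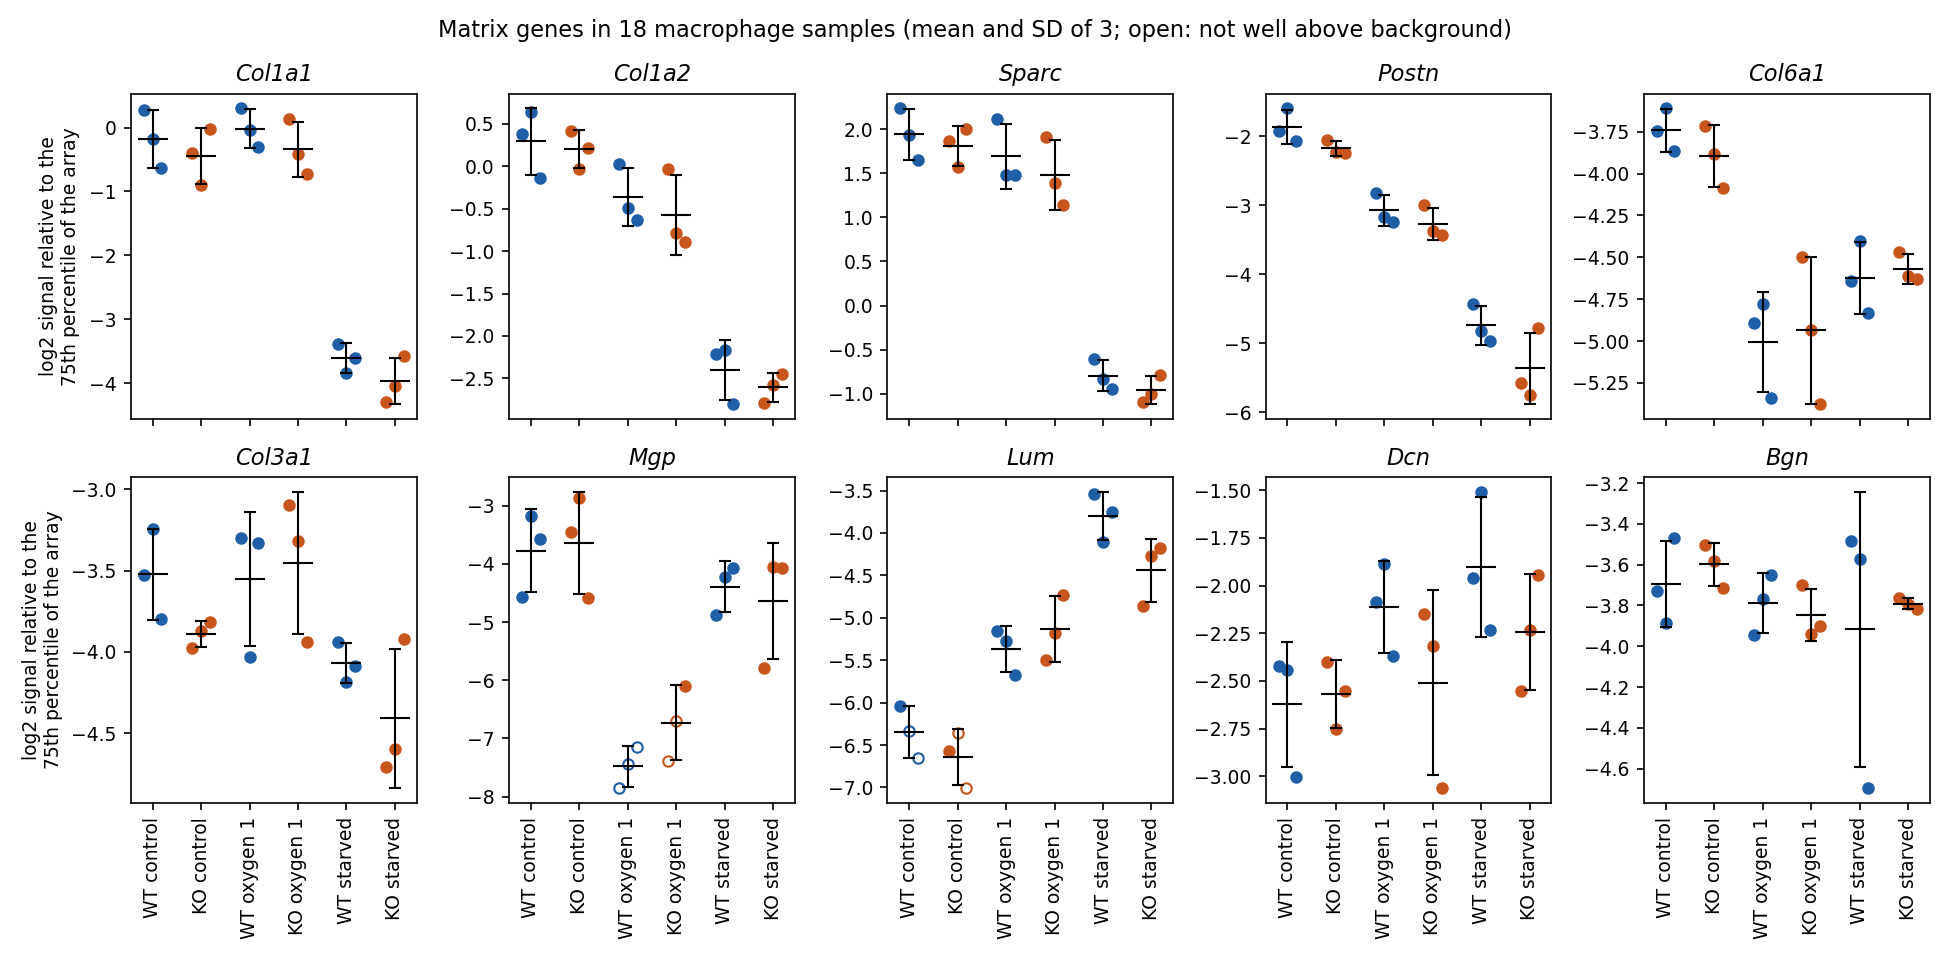
Signal of each of the 10 genes in all 18 samples, in log2 units above or below that array's 75th percentile, with blue points for wild type, orange for knockout, and bars for the mean and SD of 3 samples. Open points are samples not well above background. The starved samples of Col1a1, Col1a2, Sparc and Postn lie below all others, while Mgp is lowest at low oxygen and Lum is highest when starved.

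The promoters of the members that fell together under starvation are shown where the RefSeq-derived table held them. Of the 10 genes, 6 had an entry (Bgn, Col1a2, Col3a1, Col6a1, Postn and Sparc). Each window has 300 bases, from 250 before to 50 after the annotated start, in build GRCm38.p6 and written along the strand of the gene. The windows are chr6:4505368-4505667 (plus strand) for Col1a2, chr3:54360857-54361156 (plus strand) for the downstream of the annotated starts of Postn, and chr11:55420031-55420330 (minus strand) for Sparc. The motifs searched on both strands were the TATA box TATAAA, the CCAAT box CCAAT, the GC box GGGCGG, the AP-1 site TGANTCA, the forkhead motif GTAAACA, the hypoxia response core ACGTG, the TEAD motif GGAATG and the CArG box. Capitals mark matches, and no 2 matches overlap in these windows.
Col1a2: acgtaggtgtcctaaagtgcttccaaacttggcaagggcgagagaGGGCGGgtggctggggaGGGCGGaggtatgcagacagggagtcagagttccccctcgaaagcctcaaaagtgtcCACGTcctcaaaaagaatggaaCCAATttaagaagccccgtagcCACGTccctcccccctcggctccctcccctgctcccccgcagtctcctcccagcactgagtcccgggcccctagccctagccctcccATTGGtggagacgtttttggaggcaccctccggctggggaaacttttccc
Postn: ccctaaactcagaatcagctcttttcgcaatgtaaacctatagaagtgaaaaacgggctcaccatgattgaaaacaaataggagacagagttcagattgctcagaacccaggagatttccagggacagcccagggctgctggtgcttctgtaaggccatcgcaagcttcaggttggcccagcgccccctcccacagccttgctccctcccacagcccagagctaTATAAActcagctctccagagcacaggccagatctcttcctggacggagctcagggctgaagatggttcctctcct
Sparc: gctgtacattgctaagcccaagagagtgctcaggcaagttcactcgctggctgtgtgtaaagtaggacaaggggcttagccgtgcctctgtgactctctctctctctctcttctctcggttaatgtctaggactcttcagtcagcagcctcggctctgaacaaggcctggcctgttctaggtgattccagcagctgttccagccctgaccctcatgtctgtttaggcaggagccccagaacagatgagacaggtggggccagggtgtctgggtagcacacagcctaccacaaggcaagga
The Col1a2 window held the CCAAT box at -109 and, on the opposite strand, at 1, the GC box at -205 and -188, and the hypoxia response core on the opposite strand at -131 and -87, counting the first base of the match on the strand shown and 1 as the start. The Postn window held the TATA box at -26, and the window of its other start, chr3:54359017-54359316, held only the CCAAT box, on the opposite strand at 25. No motif searched was found in the Sparc window. Col6a1, which fell less, had the AP-1 site at -90, whose letters read the same on both strands, and the forkhead motif at -211. Of all 32851 windows in the table, 37.4% held the CCAAT box, 35.7% the GC box, 19.6% the hypoxia response core, 14.7% the TEAD motif, 13.6% the TATA box, 7.81% the AP-1 site, 3.65% the forkhead motif and 1.63% a CArG box. The 3 printed windows shared no match to a single motif. These are matches of letters only.

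Col1a1, the more abundant chain of collagen I, the main collagen of bone, skin and tendon, lost most of its signal under starvation and kept it at low oxygen. In wild type it read 0.28, -0.18 and -0.63 in the controls, 0.30, -0.04 and -0.31 at low oxygen and -3.38, -3.85 and -3.60 when starved. In knockout the controls read -0.41, -0.90 and -0.02, the low-oxygen samples 0.13, -0.42 and -0.73 and the starved samples -4.29, -4.04 and -3.57. All 6 starved samples lay below all 12 others, while controls and low-oxygen samples overlapped. Starvation lowered Col1a1 10.8-fold in wild type (log2 change -3.43 ± 0.29, SE; adjusted p = 2.84e-06) and 11.5-fold in knockout (-3.52 ± 0.29; adjusted p = 1.91e-06). The change at low oxygen was 0.16 (95% interval -0.46 to 0.78) and 0.10 (-0.51 to 0.72), which did not pass. Low-oxygen cells held 12.1-fold more Col1a1 signal than starved cells in wild type (adjusted p = 2.77e-07) and 12.4-fold more in knockout (adjusted p = 2.45e-07). Background correction by normexp in place of the scanner's own made the falls under starvation 5.12-fold and 6.21-fold.

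Col1a2, the partner chain of collagen I, was also lowest when starved, and its low-oxygen means lay between those of control and starved samples. Wild-type controls read 0.38, 0.63 and -0.14, low-oxygen samples 0.02, -0.49 and -0.63, and starved samples -2.22, -2.17 and -2.80. Knockout controls read 0.42, -0.03 and 0.22, low-oxygen samples -0.03, -0.79 and -0.89, and starved samples -2.79, -2.58 and -2.45. The starved samples lay apart from all others in both genotypes, and low-oxygen samples overlapped the controls in wild type. Under starvation Col1a2 fell 6.44-fold in wild type (-2.69 ± 0.26, SE; adjusted p = 1.08e-05) and 7.01-fold in knockout (-2.81 ± 0.26; adjusted p = 5.56e-06). At low oxygen the change was -0.66 ± 0.26 in wild type (adjusted p = 0.0599, not past the threshold) and -0.77 ± 0.26 in knockout (adjusted p = 0.0284). Both stood near the threshold. In knockout it did not pass when replicate 1 (adjusted p = 0.1005) or 3 (0.0592) of the controls or replicate 2 (0.104) or 3 (0.113) at low oxygen was left out, nor without the filter on dim probes (0.05003) or after normexp (0.109). The wild-type change passed without replicate 3 of its controls (0.0259), without replicate 1 of its low-oxygen samples (0.0301), and also without replicate 1 at low oxygen in knockout (0.0342) or replicate 3 of the starved wild-type samples (0.0478). It also passed with arrays centred on their median (0.0181), with only genes well above background in all 18 samples tested (0.0441) and with replicate number as a block (0.0359).

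Col3a1, the chain of collagen III that accompanies collagen I in soft tissue, showed no change past the threshold against control. It ranged from -3.80 to -3.24 in wild-type controls, from -4.03 to -3.30 at low oxygen and from -4.19 to -3.94 when starved. In knockout it ranged from -3.98 to -3.82, from -3.94 to -3.10 and from -4.71 to -3.92 in the same order. The starved wild-type samples lay just below their controls (change -0.55, 95% interval -1.09 to -0.01, adjusted p = 0.199), and in knockout the groups overlapped (-0.52, -1.06 to 0.02, adjusted p = 0.215). Between the stresses, low-oxygen knockout cells held 1.94-fold more than starved knockout cells (adjusted p = 0.00758), a difference that did not pass after normexp (adjusted p = 0.125). In wild type that difference was 0.52 (-0.02 to 1.06, adjusted p = 0.119) and passed without replicate 2 at low oxygen (0.76, adjusted p = 0.0323). The change of -0.03 in wild type and 0.44 in knockout at low oxygen did not pass, though the latter did without replicate 3 of the knockout low-oxygen samples (0.68, adjusted p = 0.0472).

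Col6a1, 1 of the chains of the beaded-filament collagen VI, which macrophages are known to make, was lowest at low oxygen. Wild-type controls read -3.75, -3.61 and -3.87, low-oxygen samples -4.89, -4.78 and -5.34, and starved samples -4.64, -4.40 and -4.83. Knockout controls read -3.72, -3.88 and -4.09, low-oxygen samples -4.50, -4.94 and -5.38, and starved samples -4.47, -4.61 and -4.63. Controls lay above all stressed samples in both genotypes, and low-oxygen and starved samples overlapped each other. At low oxygen Col6a1 fell 2.40-fold in wild type (-1.27 ± 0.20, SE; adjusted p = 0.000145) and 2.06-fold in knockout (-1.04 ± 0.20; adjusted p = 0.000691). Under starvation it fell 1.85-fold (-0.88 ± 0.20; adjusted p = 0.00782) and 1.59-fold (-0.67 ± 0.20; adjusted p = 0.0354). None of these 4 calls held after normexp, where the changes were -0.48, -0.46, -0.03 and -0.34 in that order. The knockout change under starvation also did not pass when replicate 1 (adjusted p = 0.12) or 2 (0.0915) of its controls or replicate 1 (0.0606), 2 (0.0948) or 3 (0.1005) of the starved samples was left out, nor without the filter on dim probes (0.0687). The direct difference between low oxygen and starvation was -0.38 (-0.81 to 0.04) in wild type and -0.37 (-0.79 to 0.06) in knockout and did not pass, though the latter passed without replicate 1 at low oxygen (-0.59, adjusted p = 0.026).

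Lumican, a keratan sulfate proteoglycan that binds collagen fibrils, went the other way from collagen I. Wild-type controls read -6.04, -6.34 and -6.65, low-oxygen samples -5.16, -5.28 and -5.68, and starved samples -3.54, -4.10 and -3.76. Knockout controls read -6.57, -6.36 and -7.00, low-oxygen samples -5.50, -5.19 and -4.73, and starved samples -4.87, -4.28 and -4.17. In wild type the 3 groups did not overlap, and in knockout only low-oxygen and starved samples did. Lum rose 1.96-fold at low oxygen in wild type (0.97 ± 0.25, SE; adjusted p = 0.00668) and 2.84-fold in knockout (1.51 ± 0.25; adjusted p = 0.000227). Under starvation it rose 5.84-fold (2.55 ± 0.25; adjusted p = 1.27e-05) and 4.61-fold (2.21 ± 0.25; adjusted p = 3.75e-05). Only 1 of 3 arrays of wild-type controls and 1 of 4 arrays of knockout controls were well above background, so the size of these folds rests on dim controls. After normexp the rises were 2.73-fold and 1.61-fold under starvation, and those at low oxygen did not pass (adjusted p = 0.129 and 0.103).

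The starved wild-type cells held 2.97-fold more Lum than the low-oxygen ones (adjusted p = 0.000186). In knockout the same difference was 1.62-fold (adjusted p = 0.0414). This last difference did not pass when replicate 1 (0.161) or 2 (0.103) at low oxygen, replicate 2 (0.124) or 3 (0.143) of the starved samples or replicate 2 of the wild-type controls (0.051) was left out, nor without the filter on dim probes (0.0704), with only its own groups in the fit (0.0642) and after normexp (0.446).

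The other proteoglycans moved little. Decorin, which carries a chondroitin or dermatan sulfate chain and binds collagen I, ranged from -3.00 to -2.42 in wild-type controls, from -2.37 to -1.89 at low oxygen and from -2.23 to -1.51 when starved, so controls lay below both stresses. Its changes there were 0.51 (95% interval -0.03 to 1.05, adjusted p = 0.129) and 0.72 (0.18 to 1.27, adjusted p = 0.0836). With slide as a block these 2 changes passed, at 0.71 (adjusted p = 0.0303) and 0.72 (0.0447), and the starvation change also passed without replicate 3 of the knockout low-oxygen samples (0.0419). In knockout decorin ranged from -2.75 to -2.40, from -3.06 to -2.15 and from -2.55 to -1.94, with overlap throughout and changes of 0.06 (-0.48 to 0.60) and 0.33 (-0.22 to 0.87).

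Biglycan, the relative of decorin with a pair of such chains, ranged from -3.89 to -3.47 in wild-type controls, from -3.94 to -3.65 at low oxygen and from -4.69 to -3.49 when starved. Knockout samples ranged from -3.72 to -3.50, from -3.94 to -3.70 and from -3.82 to -3.77. Its 4 changes against control lay between -0.25 and -0.09, and the interval of the largest ran from -0.75 to 0.25. The starved knockout samples lay just below their controls without passing the test (-0.19, adjusted p = 0.69).

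Periostin, a matricellular protein that binds collagen I and integrins, fell in steps from control to low oxygen to starvation. Wild-type controls read -1.93, -1.60 and -2.07, low-oxygen samples -2.82, -3.17 and -3.24, and starved samples -4.42, -4.82 and -4.97. Knockout controls read -2.05, -2.22 and -2.25, low-oxygen samples -3.00, -3.37 and -3.43, and starved samples -5.57, -5.75 and -4.78. The 3 conditions did not overlap in either genotype. At low oxygen Postn fell 2.32-fold in wild type (-1.21 ± 0.23, SE; adjusted p = 0.000679) and 2.13-fold in knockout (-1.09 ± 0.23; adjusted p = 0.00139). Under starvation it fell 7.32-fold (-2.87 ± 0.23; adjusted p = 1.72e-06) and 9.12-fold (-3.19 ± 0.23; adjusted p = 5.3e-07). Low-oxygen cells held 3.16-fold more than starved cells in wild type (adjusted p = 4.75e-05) and 4.28-fold more in knockout (adjusted p = 5.24e-06). After normexp the falls under starvation were 2.46-fold and 3.23-fold, the low-oxygen call in knockout did not pass (adjusted p = 0.0772), and neither did the difference between stresses in wild type (adjusted p = 0.312).

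Sparc, a calcium- and collagen-binding matricellular protein, resembled Col1a1. Wild-type controls read 2.24, 1.93 and 1.65, low-oxygen samples 2.12, 1.48 and 1.48, and starved samples -0.60, -0.83 and -0.95. Knockout controls read 1.87, 1.57 and 2.01, low-oxygen samples 1.91, 1.39 and 1.14, and starved samples -1.09, -1.01 and -0.78. All 6 starved samples lay below 0 and all 12 others above 1, while controls and low-oxygen samples overlapped. Starvation lowered Sparc 6.66-fold in wild type (-2.74 ± 0.22, SE; adjusted p = 1.92e-06) and 6.83-fold in knockout (-2.77 ± 0.22; adjusted p = 1.36e-06). At low oxygen the changes of -0.25 (95% interval -0.72 to 0.22) and -0.33 (-0.80 to 0.14) did not pass. Low-oxygen cells held 5.61-fold and 5.43-fold more than starved cells (adjusted p = 6.93e-07 and 8.38e-07). The dimmer of the Sparc probes, looked at after the values were seen, fell 7.40-fold (adjusted p = 0.00019) and 4.82-fold (adjusted p = 0.00129) under starvation, and its changes at low oxygen of -0.21 and -0.13 did not pass.

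Mgp fell at low oxygen in both genotypes and did not pass the threshold under starvation. Wild-type controls read -4.56, -3.18 and -3.58, low-oxygen samples -7.85, -7.44 and -7.15, and starved samples -4.89, -4.22 and -4.06. Knockout controls read -3.46, -2.86 and -4.59, low-oxygen samples -7.38, -6.71 and -6.10, and starved samples -5.78, -4.05 and -4.07. All 6 low-oxygen samples lay below the 12 others. No array of the 3 wild-type low-oxygen samples was well above background, so only a bound can be given there. With the scanner's own background correction, Mgp was at least 5.29-fold lower than in wild-type controls. This bound compares the mean of the controls with the lowest signal well above background on each array. The limma test (adjusted p = 6.14e-05) is of the measured difference, not of the bound. In knockout, where 1 of 4 low-oxygen arrays was well above background, the measured difference was -3.09 ± 0.53 (SE; adjusted p = 0.000278), against a measured -3.71 ± 0.53 in wild type. Both measured differences rest on low-oxygen signals mostly or wholly at background, so their sizes are uncertain and the wild-type bound is not to be set against the knockout value.

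Under starvation the changes of Mgp were -0.62 (-1.75 to 0.51) and -0.998 (-2.13 to 0.13) and did not pass. With the scanner's own background correction, starved cells held at least 3.45-fold more than low-oxygen cells in wild type (adjusted p = 0.00033 for the measured difference). In knockout the measured difference, low oxygen minus starved, was -2.10 (adjusted p = 0.00596), with 1 of 4 low-oxygen arrays well above background. After normexp the low-oxygen falls were 1.97-fold and 1.96-fold and did not pass (adjusted p = 0.0688 and 0.0673). The differences from starvation were then 2.03-fold, below the bound, in wild type and 1.44-fold in knockout. They did not pass either (adjusted p = 0.0559 and 0.392).

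**Figure D2:**
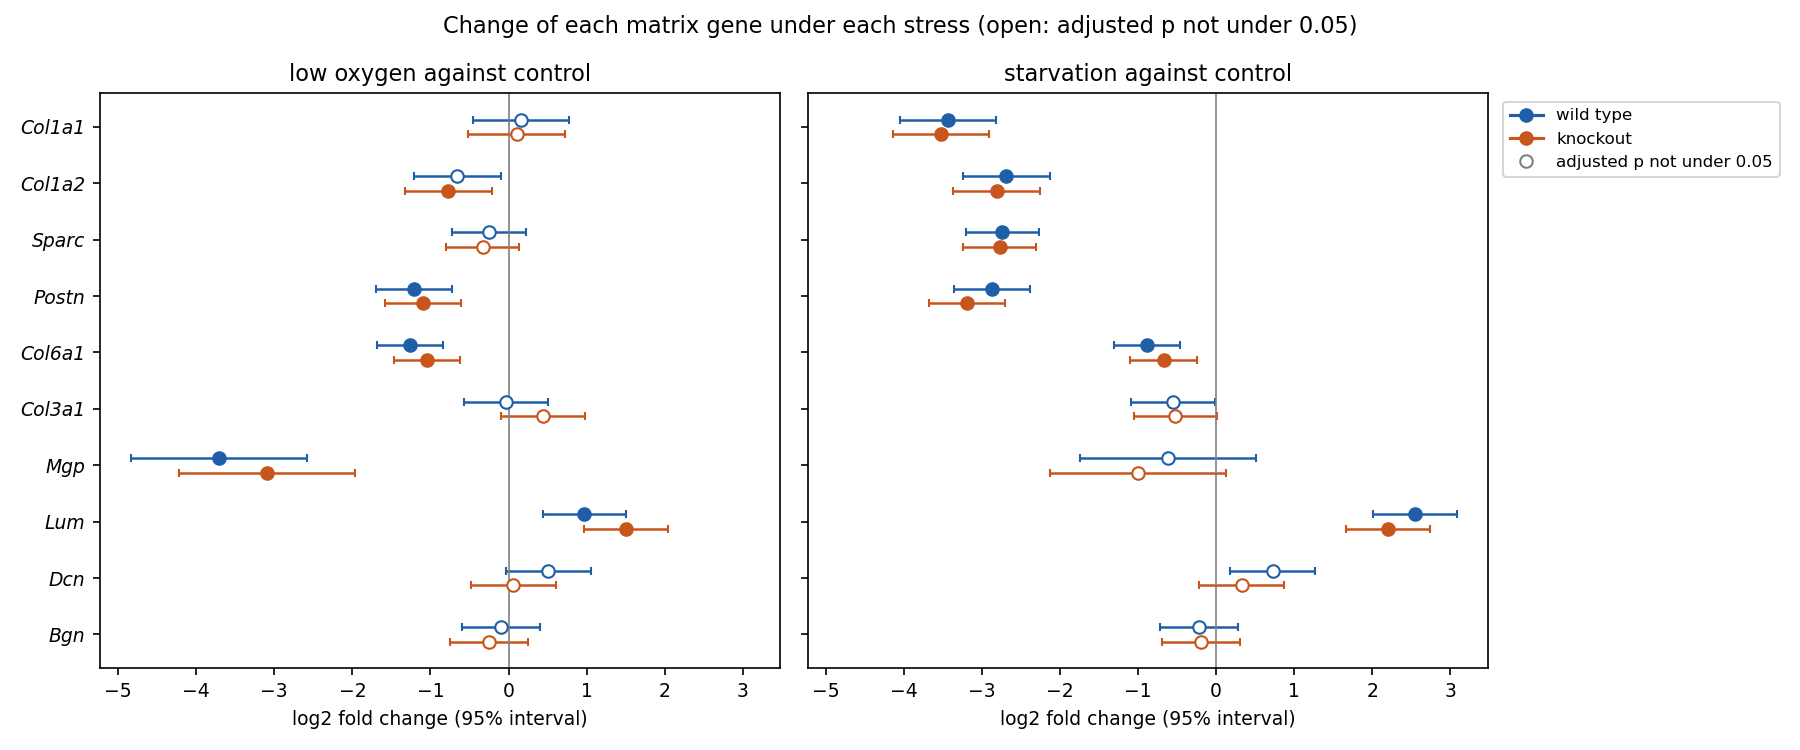
Log2 fold change of each gene at low oxygen (left) and under starvation (right) against control, in wild type (blue) and knockout (orange), with 95% intervals from limma. Filled points had an adjusted p under 0.05. Col1a1, Col1a2, Sparc and Postn lie between -2.69 and -3.52 under starvation, and Lum lies on the opposite side at 2.55 and 2.21. Mgp in wild type at low oxygen is a measured difference with no low-oxygen array well above background.

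In the direct comparison of the stresses, 4 members were higher and 2 lower at low oxygen than under starvation in wild type, and 5 were higher and 2 lower in knockout. Of all genes tested 38.1% passed in wild type (19.8% higher and 18.3% lower) and 37.1% in knockout (19.2% higher and 17.9% lower). Col1a1, Col1a2, Sparc and Postn were the higher genes in both genotypes, with Col3a1 added in knockout, and Lum and Mgp were the lower genes. Groups that did not overlap numbered 5 of 10 genes at low oxygen in each genotype (49.9% and 49% of all genes), 8 and 7 under starvation (29.7% and 30.7%), and 6 and 5 between the stresses (46.7% and 50.1%).

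In the order of the 6 group means, Col1a2, Col6a1, Lum, Postn, Sparc and Mgp kept the 2 genotypes of each condition next to each other, and Col1a1, Col3a1, Dcn and Bgn did not. For Col1a1, Col1a2, Sparc and Postn both starved groups came last, as they did for Col3a1, whose changes under starvation did not pass. For Col1a1, Col1a2 and Sparc the neighbouring control and low-oxygen groups mostly overlapped, the exception being Col1a2 in knockout. For Mgp both low-oxygen groups came last (means -7.48 ± 0.35 and -6.73 ± 0.64, SD, n = 3), and controls (-3.77 ± 0.71 and -3.64 ± 0.88) and starved groups (-4.39 ± 0.44 and -4.63 ± 0.99) did not separate beyond their spread. For Lum the order from the top was starved wild type (-3.80 ± 0.29), starved knockout (-4.44 ± 0.37), low-oxygen knockout (-5.14 ± 0.39), low-oxygen wild type (-5.37 ± 0.27), wild-type control (-6.34 ± 0.31) and knockout control (-6.64 ± 0.33).

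Between knockout and wild type no member passed the test in any condition, and no gene of the 20813 did. Background counts are therefore 0% in controls, at low oxygen and in starved cells. At an unadjusted p under 0.05 limma gave 290 genes (1.39%) in controls, 353 (1.70%) at low oxygen and 394 (1.89%) in starved cells, of which 0, 0 and 2 were members. The 2 were Postn, lower in starved knockout than in starved wild type (-0.63, 95% interval -1.11 to -0.14, unadjusted p = 0.0152, adjusted p = 1), and Lum (-0.64, -1.18 to -0.10, unadjusted p = 0.0231, adjusted p = 1). On the 1 slide that held both starved genotypes Postn differed by 0.19 and Lum by -0.42.

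Groups of the 2 genotypes did not overlap for Col3a1 in controls (-0.37, -0.90 to 0.17), where this held for 5.02% of all genes, and for Lum in starved cells (5.21% of all genes). At low oxygen it held for no member (4.4% of all genes). Col1a1 differed between genotypes by -0.27 (-0.88 to 0.35) in controls, -0.32 (-0.94 to 0.30) at low oxygen and -0.36 (-0.98 to 0.26) when starved. Sparc differed by -0.13 (-0.60 to 0.34), -0.21 (-0.68 to 0.26) and -0.16 (-0.63 to 0.31). These intervals reach nearly 1 unit for Col1a1 and 0.68 units for Sparc on the lower side.

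The responses to stress were compared between genotypes as a difference of differences. None passed for any member (adjusted p = 1) or any gene, and at an unadjusted p under 0.05 there were 230 genes (1.11%) for low oxygen and 216 (1.04%) for starvation, none of them members. For low oxygen the knockout minus wild-type difference was 0.53 for Lum (95% interval -0.23 to 1.30), -0.45 for Dcn (-1.22 to 0.32) and 0.47 for Col3a1 (-0.29 to 1.23). For starvation it was -0.09 for Col1a1 (-0.97 to 0.78), -0.04 for Sparc (-0.70 to 0.63) and -0.32 for Postn (-1.01 to 0.37). The widest interval was that of Mgp, at 0.61 (-0.99 to 2.21) for low oxygen.

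The arrays lay on 5 slides, some of which held control and stressed samples of 1 genotype. Under starvation 3 slides allowed the comparison in each genotype. Col1a1 differed there by -3.66 to -2.98 in wild type and -3.81 to -3.14 in knockout, Sparc by -2.84 to -2.61 and -3.01 to -2.57, Postn by -3.22 to -2.50 and -3.53 to -2.53, and Lum by 2.23 to 2.90 and 1.89 to 2.83. Every within-slide value of these 4 genes had the sign of the change over all slides. At low oxygen only 1 slide served in wild type, where Mgp differed by -2.88, Col6a1 by -1.04, Postn by -1.24 and Lum by 0.77. In knockout 3 slides gave -4.31 to -2.67 for Mgp, -1.65 to -0.53 for Col6a1, -1.39 to -0.56 for Postn and 0.83 to 2.03 for Lum. Col1a2 at low oxygen ranged from -1.26 to 0.05 in knockout and so did not keep 1 sign. Between the stresses in knockout 2 slides served, and Lum differed by -1.17 to 0.14 and Mgp by -3.12 to -0.31 between them. With slide as a fixed block every called change of a member against control stayed past the threshold, with adjusted p of 0.0298 or less.

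**Figure D3:**
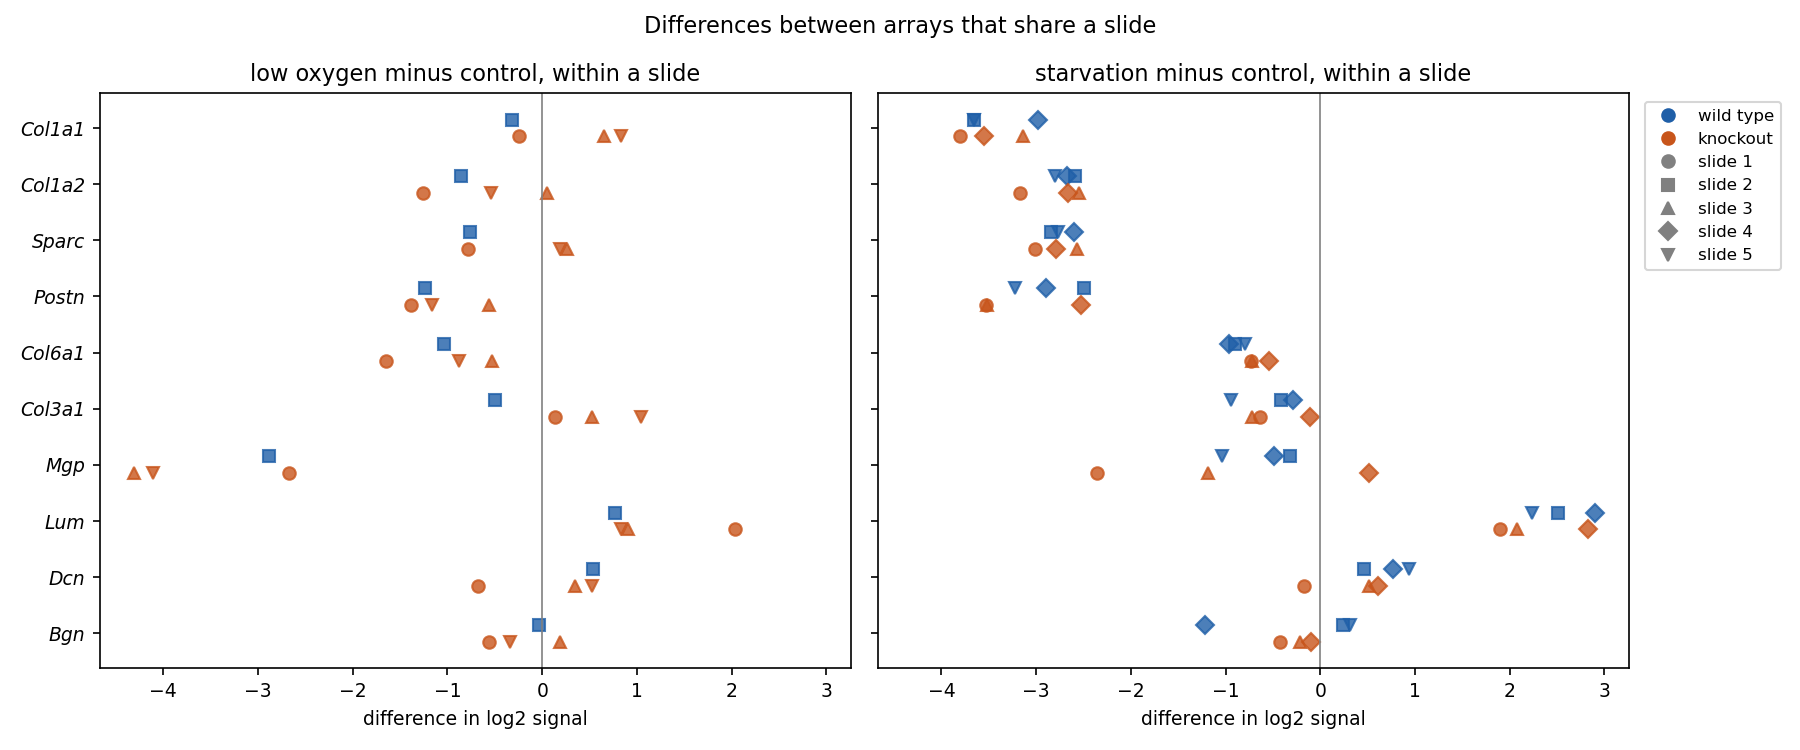
Differences in log2 signal between stressed and control arrays of the same slide, at low oxygen (left) and under starvation (right), with blue for wild type, orange for knockout and a symbol for each slide. Under starvation the points of Col1a1, Sparc, Postn and Col1a2 lie between -3.81 and -2.50, and those of Lum between 1.89 and 2.90.

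Across the 18 samples the starvation-sensitive members followed each other closely. Pearson's r was 0.988 between Col1a1 and Sparc, 0.98 between Col1a2 and Sparc, 0.972 between Col1a2 and Postn and 0.946 between Col1a1 and Col1a2. Lum ran against Col1a2 (-0.866) and Postn (-0.861). Col6a1 was most like Mgp (0.699), and Dcn and Bgn followed no other member above 0.55. Among 12674 other named genes, all well above background in at least 9 of 18 samples, the 3 most like Col1a1 were P3h4 (0.977), Fermt2 (0.974) and Ccn2 (0.973). For Col1a2 they were Fkbp10 (0.985), Serpinh1 (0.984) and Serpinf1 (0.983), for Sparc Aebp1 (0.984), Serpinf1 (0.981) and Yap1 (0.977), and for Postn Serpinh1 (0.982), Actg2 (0.972) and Adamts2 (0.97). For Lum they were Atp13a4 (0.979), Spp1 (0.97) and Flrt3 (0.963), and for Mgp Uchl5 (0.966), Nup43 (0.964) and Fam111a (0.964). For Col6a1 they were Cyp1b1 (0.97), Srm (0.953) and Slc8a2 (0.945). The highest values were lower for Col3a1 (Eri1, 0.891), Dcn (Lonrf3, 0.818) and Bgn (Krtap5-1, 0.817). All these r values describe 18 samples that share 6 groups and the normalization of each array. No starved array was well above background for Ccn2, Fermt2, Actg2 or Yap1, so their r rests partly on background signal. The same held for Adamts2 in starved knockout and Slc8a2 in wild type at low oxygen. Atp13a4 was well above background on 1 of 3 control arrays in wild type and 1 of 4 in knockout.

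Other matrix genes were followed in lists. Counts in these lists and in the marker lists further below are to be read beside the shares of all genes tested. At low oxygen 20.5% were higher and 18.1% lower in wild type, and 21.4% and 18.3% in knockout. Under starvation 6.49% were higher and 6.02% lower in wild type, and 7.13% and 6.38% in knockout. No list was tested against these shares. Folds given as at least a value in all these lists are bounds made as for Mgp, with the scanner's own background correction. The lowest signal well above background on an array is no strict ceiling for a probe that was not well above it. After normexp the fall of Mgp at low oxygen in wild type was 1.97-fold, below its bound of 5.29-fold. Of 40 further matricellular and matrix glycoprotein genes tested, 14 were lower and 4 higher in starved wild-type cells and 15 and 4 in starved knockout cells, with a median change of 0.03 and 0.05. At low oxygen 7 were lower and 11 higher in wild type, and 5 and 10 in knockout. Ccn2 (connective tissue growth factor), the starved samples of which were not well above background, fell at least 73.1-fold and 68.5-fold under starvation. The measured differences had adjusted p = 3.77e-07 and 5.14e-07. Nid1 (nidogen, a basement membrane linker) fell at least 3.09-fold and 2.83-fold under starvation and rose 2.38-fold and 2.65-fold at low oxygen. Ccn4 fell at least 3.88-fold and 3.1-fold under starvation, and Ccn5 at least 2.19-fold and 2.07-fold at low oxygen. Tgfbi, an integrin-binding protein related to periostin, rose 3.1-fold and 2.99-fold at low oxygen and 5.40-fold and 4.75-fold under starvation.

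Of 14 procollagen chaperone and processing genes, 4 were lower and none higher under starvation in each genotype (median -0.04 and -0.24). Serpinh1 (the collagen chaperone HSP47) fell 8.42-fold and 7.56-fold (adjusted p = 4.13e-08 and 6.85e-08), and Fkbp10, a prolyl isomerase of procollagen, 10.3-fold and 9.35-fold (adjusted p = 3.48e-06 and 4.34e-06). Adamts2 and Adamts14, which cut the N-terminal propeptide, were the other 2, at 3.58-fold and 2.48-fold in wild type. At low oxygen 7 of the 14 were lower and 4 higher in wild type, and 7 and 3 in knockout (median -0.66 and -0.63). Serpinh1 fell 1.95-fold and 1.77-fold there, whereas P4hb, a subunit of prolyl 4-hydroxylase that also serves as a disulfide isomerase, rose 3.06-fold and 3.02-fold.

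Collagens outside the 10 did not move as 1 group. Of 8 further fibrillar chains 3 were tested, and Col5a1, a collagen V chain, fell at least 5.79-fold in starved wild-type cells and 5.72-fold in knockout, where 1 of 3 starved arrays was well above background. Of 7 basement membrane and network chains tested, 3 were lower and 1 higher in starved wild type and 2 and 1 in knockout, and the higher gene, Col18a1, rose 4.47-fold and 5.52-fold. At low oxygen 1 of the 3 further fibrillar chains rose in wild type and 2 in knockout, and none fell. Of the 7 basement membrane and network chains, 2 rose and 1 fell there in wild type, and 1 rose in knockout. Of 9 other chains tested 3 rose at low oxygen in each genotype, and 1 fell in wild type. Those that rose were Col16a1 at 3.13-fold and 3.22-fold, Col14a1 at 3.20-fold and 4.82-fold and Col7a1 at 1.86-fold and 2.05-fold. Under starvation 3 of these 9 rose in each genotype too, and 1 fell in wild type.

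Of 15 further proteoglycans tested, 5 rose and none fell at low oxygen in wild type, and 5 rose and 1 fell in knockout, with Sdc4 (syndecan 4) at 3.45-fold and 3.36-fold and Srgn (serglycin, stored in granules of blood cells) at 3.21-fold and 4.09-fold. Under starvation 4 rose in each genotype, among them Gpc1 (glypican 1) at 2.69-fold and 3.40-fold, and 1 and 2 fell, with Hspg2 (perlecan) at 1.97-fold and 1.61-fold. Of 8 collagen receptors tested, 3 fell and 2 rose under starvation in each genotype. Itga11, the collagen-binding integrin chain of fibroblasts, fell at least 9.26-fold and 8.78-fold, and the uptake receptors Mrc1 and Msr1 rose 2.46-fold and 1.71-fold in wild type.

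**Figure D4:**
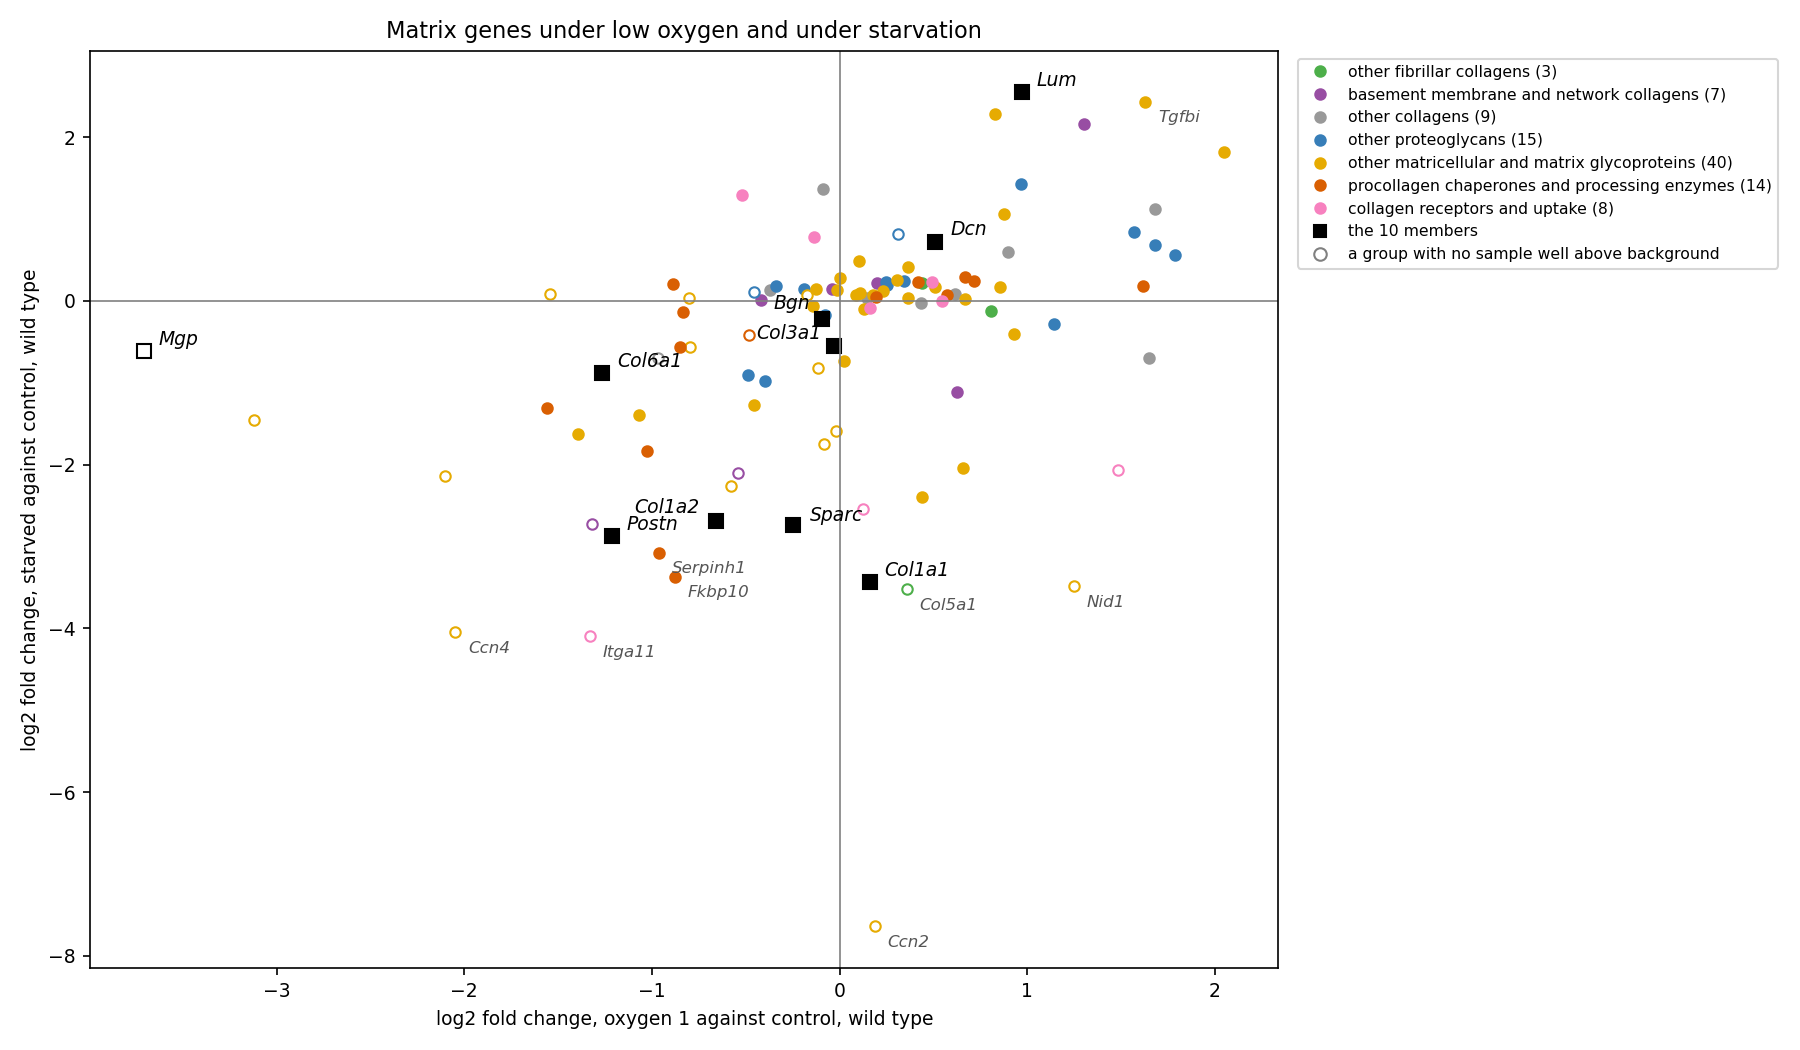
Log2 fold change at low oxygen (horizontal) and under starvation (vertical) in wild-type cells for the 10 genes (black squares) and 96 other matrix genes tested (circles, coloured by list). Open symbols are genes with a group in which no sample was well above background. Both axes share the wild-type controls. Col1a1, Col1a2, Sparc and Postn lie low on the vertical axis near Serpinh1 and Fkbp10, Mgp lies far left, and Lum lies at the top right with Tgfbi.

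Markers of other cell types that a marrow culture can hold were measured beside these results. Of 18 fibroblast and mesenchymal stromal markers on the array, 8 were well above background in all samples, 4 in some, and 6 in none, namely Pdgfra, Dpt, Twist1, Twist2, Tcf21 and Fbln1. The summed linear signal of the list, in units of the 75th percentile of the array, ranged from 133 to 151 in wild-type controls, 203 to 216 at low oxygen and 232 to 261 when starved, and from 120 to 130, 197 to 203 and 209 to 239 in knockout. It was thus highest in the starved samples, where the summed signal of the 10 members was lowest, the latter ranging from 5.39 to 7.96, 4.77 to 7.20 and 1.25 to 1.59 in wild type and from 5.21 to 6.80, 3.77 to 6.45 and 1.07 to 1.44 in knockout. Vim and S100a4, which macrophages also express, made up most of that sum. Without these 2 it ranged from 2.8 to 4.43, 5.06 to 7.72 and 3.56 to 5.42 in wild type and from 2.04 to 4.96, 6.09 to 7.89 and 4.44 to 6.07 in knockout, so starved and control samples overlapped. Without Lepr and Ly6a as well, the next brightest genes of the list, it ranged from 0.401 to 0.418, 0.45 to 0.52 and 0.288 to 0.305 in wild type and from 0.379 to 0.409, 0.437 to 0.517 and 0.299 to 0.409 in knockout. Both trimmings were made after the values were seen, and starved samples did not lie below controls in the first and did so in wild type in the other. Of the 12 list genes tested, 2 fell and 2 rose in starved wild type and 1 and 4 in knockout. Loxl1, a matrix cross-linking oxidase, fell at least 4.36-fold in starved wild type. In starved knockout Loxl1 fell 4.64-fold, with 1 of 3 starved arrays well above background. Vim rose 1.62-fold and 1.74-fold under starvation, and S100a4 rose 1.96-fold and 1.91-fold. At low oxygen 3 of the list fell and 5 rose in wild type, and 1 and 5 in knockout.

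Of 10 smooth muscle and pericyte markers, 3 were well above background in all samples, 2 in some and 5 in none (Myh11, Des, Rgs5, Notch3 and Abcc9). Their summed signal ranged from 21.2 to 46.3, 45.6 to 70.1 and 26.6 to 44.5 in wild type and from 21.2 to 47.5, 38.3 to 57.4 and 26.6 to 34.3 in knockout, most of it from Mcam. Of the 5 tested, 2 fell, none rose and 3 did not pass under starvation in each genotype. Acta2 fell 4.07-fold and 4.27-fold there and Cnn1, the smooth muscle calponin, at least 9.20-fold and 8.20-fold. At low oxygen 1 of the 5 rose and 1 fell in wild type, and 2 fell in knockout. Of 11 osteoblast and chondrocyte markers 6 were well above background in no sample (Sp7, Ibsp, Dmp1, Sost, Sox9 and Col2a1), and the sum ranged from 0.265 to 0.29, 0.149 to 0.207 and 0.303 to 0.377 in wild type and from 0.264 to 0.301, 0.142 to 0.165 and 0.346 to 0.416 in knockout. Like Mgp, this sum was lowest at low oxygen, and so was the adipocyte sum given below. Of these 11 markers only 2, Matn1 and Chad, were well above background in all samples. Neutrophil markers, of which 1 of 9 (Retnlg) was never well above background, summed to 12 to 18.7, 6.12 to 9.68 and 7.17 to 9.30 in wild type and 9.68 to 15.8, 5.19 to 9.61 and 5.66 to 9.07 in knockout, lower under both stresses. Adipocyte markers, with 4 of 8 in no sample (Adipoq, Plin1, Cfd and Lep), summed to 45.4 to 56.4, 26.6 to 40.4 and 51.2 to 55.9 in wild type and 40.9 to 56.4, 26.5 to 35 and 56.4 to 57.3 in knockout. Endothelial markers, with 2 of 10 in no sample (Tie1 and Emcn), summed to 2.47 to 2.98, 3.63 to 4.26 and 3.08 to 4.95 in wild type and 2.1 to 3.18, 3.88 to 4.01 and 3.5 to 4.79 in knockout. Lymphocyte markers, with 3 of 9 in no sample (Cd3g, Cd8a and Cd79a), stayed between 2.86 and 4.47 in all groups. The part of any of these cell types in the changes of the 10 genes was not tested.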

How the data were processed

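RNA of 18 cultures was hybridised to 20 single-colour Agilent arrays of 43020 spots, 2 samples on 2 arrays each, from 200 ng per array per the labels' protocols. The deposited scanner files give each spot's intensity, of which the background-corrected processed signal was used. The authors' deposited series table, in log2 units, served as an alternative, and limma is named in the submitters' processing notes.

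Each array's log2 intensity was centred on its 75th percentile, spots flagged as outliers were left out, arrays of 1 sample were averaged and the brightest probe stood for a gene. Probes were named through RefSeq symbols (26055 of 39429 matched, 66.1%). Genes had to be well above background in 3 of 18 samples. A model of 6 group means was fitted with limma 3.58.1 in R 4.3.3 (12 residual and 2.48 prior degrees of freedom), adjusted over 20813 genes and tested on simulated data. Replicate numbers were not taken as pairing the samples, and a fit with them as a block served as an alternative. P-values measure the spread between these samples, and 3 samples per group limit the precision.

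All members were named. From each list, up to 4 genes with the smallest adjusted p in wild type under each stress among those past 0.05 in both genotypes and well above background in a whole group were eligible, and the 3 most similar genes per member. The dimmer Sparc probe was added after seeing the data. The members and lists were chosen with earlier results of these data known. Alternatives covered background correction, scaling, filters, probe choice, slide, replicate block and each sample left out.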

Additional observations from a re-analysis of the deposited data

How the results depend on the processing

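Counts of members past the threshold were recomputed 352 times over 11 comparisons, and 348 stayed within 1.5 times the count reported. The other 4 were, after normexp, 1 member at low oxygen in wild type (against 4), 0 at low oxygen in knockout (against 5) and 4 between the stresses in knockout (against 7), and, with the filter set to well above background in all 18 samples, 3 of the 8 members then tested at low oxygen in knockout. Normexp with an offset of 50 was run on the median signal of a spot, because the mean signal planned for it was not among the columns used here. Over all genes, normexp called 4300 and 4626 at low oxygen (against 8039 and 8268 in wild type and knockout), 1232 and 1073 under starvation (against 2602 and 2812) and 4336 and 4158 between the stresses (against 7934 and 7719), and leaving out replicate 1 of the starved wild-type samples called 1702 in that starvation comparison. The cause was not tested. The genotype comparisons and responses called 0 to 2 genes under every alternative, none of them members. Their recounts are among the 348 that stayed, and with no gene called as reported they could hardly move. Leaving out each sample in turn gave 6 to 7 members under starvation in wild type, 5 to 6 in knockout, 4 to 5 at low oxygen in each genotype, and 6 to 7 between the stresses in each. Of 3496 member values under these alternatives, 37 lost a call, 13 gained one and none reversed a called change, while 104 small changes past the threshold in neither setting turned their sign.

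Samples with the same replicate number deviated together in 8 of 18 pairs of 1 genotype (correlation above 0.1, range -0.087 to 0.287, median 0.078), against 5 of 36 pairs with different numbers (median -0.053). Not every same-numbered pair was above 0.1 and no label states a shared batch, so the numbers were not taken as pairing. With the replicate block 6 members passed under starvation in each genotype and 5 at low oxygen in each. The block added Col1a2 at low oxygen in wild type (adjusted p = 0.0359) and lost Lum between the stresses in knockout (0.0581), and it changed no other call. Without the 3 samples that stood apart in earlier work on these data (replicate 1 of the wild-type controls, 3 of the knockout controls and 3 of the starved wild-type cells), Col6a1 under starvation did not pass in either genotype (adjusted p = 0.068 and 0.0525), nor Col1a2 at low oxygen in knockout (0.0563). Dim signal limits Lum in controls and Mgp at low oxygen.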
